A study of Mus musculus with 9 samples.

Results

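The genes described here are those whose RNA level moved to the same side of the controls with a miR-378-3p mimic and with a miR-378-3p inhibitor. Genes were selected on their measured levels: one was taken when its log2 value on each of the 6 mimic and inhibitor arrays lay above, or on each lay below, all 3 control arrays. Of 19938 genes, 793 met this rule, 329 above the controls (1.65% of the genes) and 464 below them (2.33%). Unrelated noise can also place all 6 mimic and inhibitor arrays of a gene on the same side of the controls. How many genes this takes was not worked out, so the 329 and 464 do not give the size of a shared response. All cells were NIH-3T3, a line of fibroblasts from mouse embryos, which received 25 nM of a synthetic RNA with the lipid reagent DharmaFECT 1 and were lysed 48 hours later. The mimic group received a synthetic mimic of miR-378-3p, the inhibitor group a molecule that blocks it, and the control group received a RISC-free siRNA, modified so that the silencing complex does not take it up. Each group had 3 Affymetrix arrays, and the labels do not say whether these came from separate cultures, so the spread between arrays may be technical. Both groups were set against the same 3 control arrays, and the design has no mimic or inhibitor of an unrelated sequence. A common response to both RNAs and a deviation of the controls thus cannot be told apart.

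A microRNA guides Argonaute proteins to messenger RNAs that pair with its seed, which lowers the level of those messages. A mimic and an inhibitor of one microRNA are expected to push its direct targets in opposite directions, and genes that go the same way with both lie outside that scheme. Fibroblasts respond to serum, adhesion and stretch through early transcription factors and through the actin-regulated factors SRF and YAP, and these programs drive genes such as Nr4a1, Ccn2 and Thbs1.

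Array medians ran from 3.94 to 4.03 (log2). The 75th percentiles ran from 5.55 (mimic 3) to 5.76 (inhibitor 1), with the controls at 5.64 to 5.65. Mimic 3 and inhibitor 1 stood at opposite ends of the first principal component, with scores of -20.5 and 20.9, and the controls lay between -4.38 and -2.78. Fibroblast markers were present, and 11 of 12 exceeded 3.86, the log2 level used below as a filter. Their mean was 9.13 to 9.17 on the control arrays, 9.08 to 9.20 on the mimic arrays and 9.07 to 9.15 on the inhibitor arrays. Of 24 markers of macrophages, epithelium, endothelium and muscle, 10 reached the filter in the controls. These were Cd68 and Csf1r of macrophages, Krt8 and Krt18 of epithelium, Pecam1, Tie1 and Vwf of endothelium, and Ckm, Myod1 and Tnnt1 of muscle. Their control means ran from 3.91 (Vwf) to 4.89 (Ckm). Ptprc, Epcam and Cdh5 were among the markers that did not reach the filter.

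Most of the shared differences were small. The median difference of the pooled 6 arrays from the controls was 0.21 (log2) for the genes above the controls and -0.11 for those below, against -0.003 over all genes. In 4 genes above the controls and 2 below, both groups differed from the controls by at least 1.5-fold. Of the genes above the controls, 298 passed the level filter, the 40th percentile of mean values (2.49% of the 11963 genes that passed it), and 31 did not. Of those below the controls, 284 passed (2.37%) and 180 did not. Of all genes under the filter, 0.389% lay above the controls and 2.26% below them, beside 1.65% and 2.33% of all genes. Weakly detected probe sets were thus scarce among the genes above the controls and near their share over all genes among those below. These values chose the genes and are given without a test. Without mimic 3 and inhibitor 1 the rule, then applied to 4 arrays against 3, took 1085 genes above and 906 below. Rescaling the arrays changed the split. The rule took 494 genes above and 446 below after quantile normalization, 353 and 282 after centring on medians, and 338 and 338 after centring on 75th percentiles, where 41.5%, 52.6%, 55.6% and 50.0% of the genes lay above the controls in the deposited values and under these 3 settings in turn. Under all 3 rescalings 156 of the 329 and 118 of the 464 genes still met the rule.

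**Figure D1:**
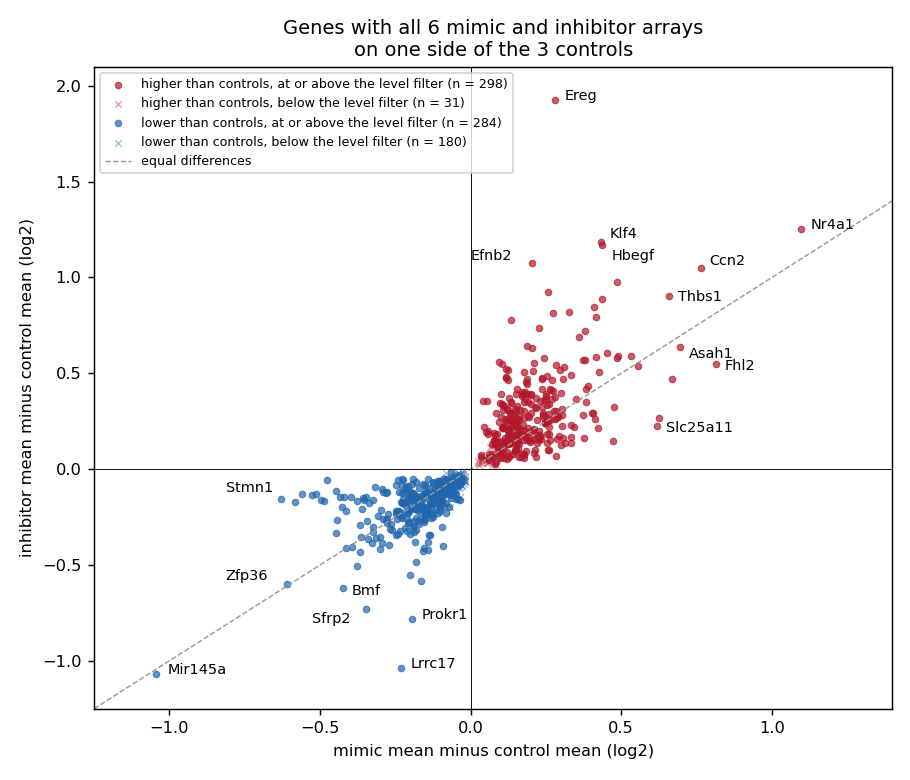
Difference of the mimic mean (x axis) and of the inhibitor mean (y axis) from the control mean, in log2 units, for the 793 genes with all 6 mimic and inhibitor arrays on one side of the 3 controls; crosses mark genes below the level filter and the dashed line marks equal differences. Both axes use the same controls. Nr4a1 and Mir145a lie far out in both groups, and Ereg differs by 0.28 with the mimic and 1.93 with the inhibitor.

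Among the genes above the controls, the nuclear receptor gene Nr4a1 (gene ID 15370) led, followed by Ccn2 and Thbs1, which encode secreted matricellular proteins of the connective tissue growth factor and thrombospondin families. Nr4a1 read 5.88, 6.05 and 6.04 (log2) on the control arrays, 7.14, 7.22 and 6.90 with the mimic, and 7.29, 7.28 and 7.16 with the inhibitor. Its mean was thus 1.10 higher with the mimic and 1.25 higher with the inhibitor than the control mean of 5.99 ± 0.10 (SD, n = 3). Ccn2 (gene ID 14219) read 8.11, 8.25 and 8.10 in the controls, 8.94, 8.96 and 8.85 with the mimic and 9.22, 9.22 and 9.16 with the inhibitor, so that the 3 groups did not overlap. Thbs1 read 9.14, 9.20 and 9.14 in the controls, 9.85, 9.96 and 9.64 with the mimic, and 10.15, 10.03 and 10.00 with the inhibitor. For both genes the inhibitor arrays were the highest.

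Fhl2, a LIM-domain transcriptional cofactor, went the other way in size. It read 6.38, 6.60 and 6.50 in the controls, 7.29, 7.28 and 7.36 with the mimic and 7.02, 7.08 and 7.03 with the inhibitor. Asah1, the lysosomal acid ceramidase, read 7.79, 7.68 and 7.89 in the controls, 8.57, 8.62 and 8.26 with the mimic, and 8.52, 8.34 and 8.40 with the inhibitor. Mimic 3 was its lowest treated array, and the mimic and inhibitor arrays overlapped. The other leading genes were Nrn1 (0.55 with the mimic and 0.54 with the inhibitor), which encodes neuritin, Errfi1 (0.53 and 0.59), the feedback inhibitor of the epidermal growth factor receptor, the pseudokinase gene Trib2 (0.49 and 0.59), Klf7 (0.49 and 0.98), Zswim4 (0.49 and 0.58), the pseudokinase gene Stk40 (0.45 and 0.61) and Id1 (0.67 and 0.47), an inhibitor of basic helix-loop-helix factors.

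**Figure D2:**
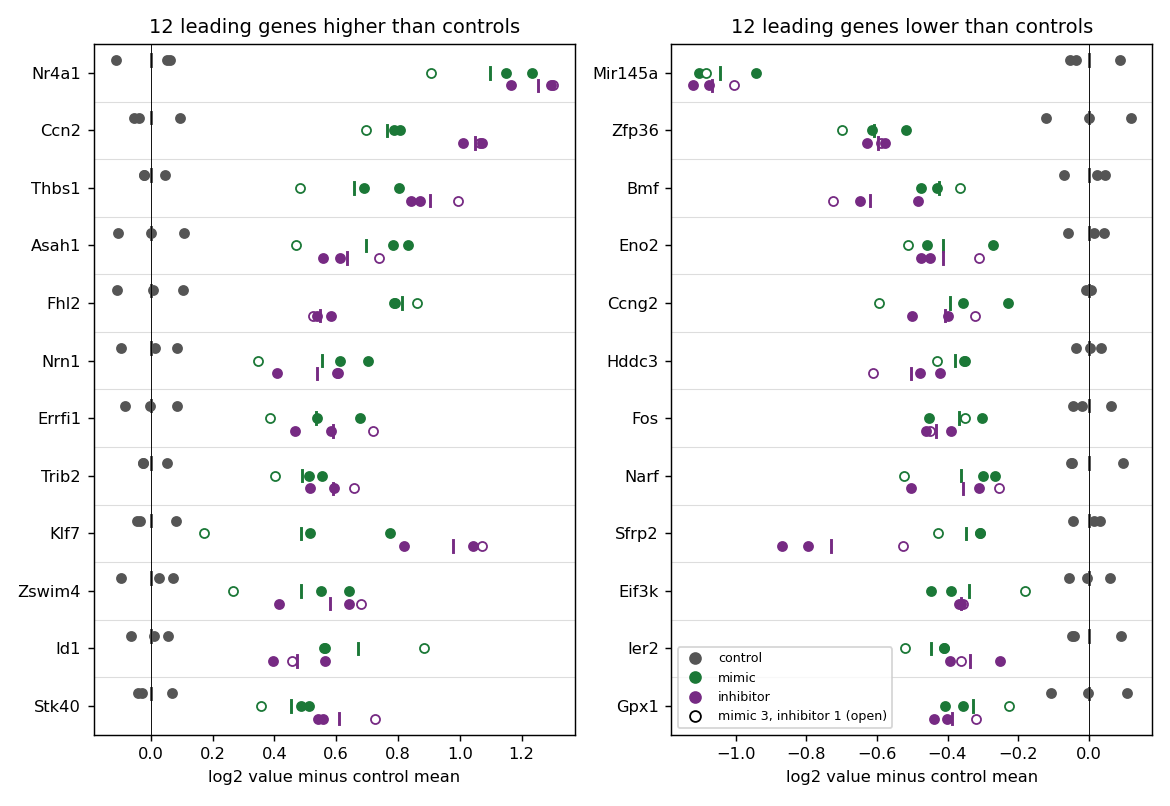
Log2 value minus the control mean on each of the 9 arrays for the 12 leading genes above (left) and below (right) the controls, ranked by the smaller of the 2 differences; dots are arrays, short bars are group means, and open dots are mimic 3 and inhibitor 1. In these 24 genes every mimic and inhibitor dot lies beyond all control dots, as the rule requires. Among those above the controls, mimic 3 is the mimic array nearest to them in all but Fhl2 and Id1.

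Of the 23 gene lists, growth factor signalling held the largest share above the controls. Of 22 EGF receptor ligands and MAP kinase feedback genes on the array, 6 lay above the controls and 0 below, where 1.65% and 2.33% of all genes did. Besides Errfi1 these were the ligand genes Hbegf (0.44 with the mimic and 1.17 with the inhibitor) and Ereg (0.28 and 1.93), Phlda1 (0.27 and 0.41), the phosphatase gene Dusp5 (0.20 and 0.34) and the Ras pathway inhibitor gene Spry4 (0.13 and 0.16). Hbegf read 4.41, 4.59 and 4.54 in the controls, 5.03, 5.06 and 4.76 with the mimic and 5.63, 5.74 and 5.67 with the inhibitor, a graded order without overlap. The median pooled difference was 0.24 over the 19 genes of the list that passed the level filter, beside 0.01 over all genes that passed. The list's median was 0.12 with the mimic and 0.44 with the inhibitor, so the inhibitor arrays carried most of the pooled value. In the direct comparison described further down, 8 of the 19 were lower with the mimic than with the inhibitor and 0 were higher (limma, adjusted p under 0.05). Over all genes tested, 19.9% were lower with the mimic and 6.91% higher, so part of this lean is general.

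Early response genes went both ways. Of 26 on the array, 6 lay above and 3 below the controls, beside 1.65% and 2.33% of all genes. Above lay Nr4a1, Klf4 (0.43 and 1.19), Klf10 (0.41 and 0.84), Ier5 (0.30 and 0.31), Fosl2 (0.16 and 0.26) and Maff (0.13 and 0.13, below the level filter). Ier5 lost its separation after quantile normalization and after centring on 75th percentiles. Below lay Zfp36, Fos and Ier2, described further down. Of 17 genes of the Kruppel-like factor family, a set picked after the values were seen, 6 lay above and 0 below, namely Klf4, Klf7, Klf9 (0.43 and 0.89), Klf10, Klf5 (0.19 and 0.45) and Klf16 (0.24 and 0.29). Klf16 lost its separation after quantile normalization.

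Genes of TGF-beta and bone morphogenetic protein signalling held 4 of 23 above the controls and 1 below, beside 1.65% and 2.33% of all genes. Smad7, an inhibitory Smad and a feedback target of the pathway, read 4.45, 4.44 and 4.50 in the controls, 4.82, 4.89 and 4.82 with the mimic, and 5.15, 5.25 and 5.14 with the inhibitor. The steps between its 3 groups exceeded the spread within each. Id1, Skil (0.21 and 0.51), which encodes the Smad repressor SnoN, and the receptor gene Tgfbr1 (0.28 and 0.30) were the others above, and the ligand gene Tgfb2 (-0.20 and -0.18) lay below. Tgfbr1 and Tgfb2 no longer separated from the controls after centring on medians, nor did Tgfb2 after centring on 75th percentiles.

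Of 20 targets of SRF and its MRTF cofactors, 3 lay above and 0 below (1.65% and 2.33% over all genes), namely Fhl2, Vcl and Srf. Vcl, which encodes the adhesion protein vinculin, read 7.87, 7.85 and 7.92 in the controls, 8.36, 8.46 and 8.10 with the mimic, and 8.52, 8.29 and 8.35 with the inhibitor. Srf differed by 0.25 with the mimic and 0.18 with the inhibitor, and lost its separation after quantile normalization. Of 17 YAP-TEAD targets, Ccn2 and Thbs1 lay above and F3 (-0.21 and -0.23), the tissue factor gene, below. Over the 16 that passed the level filter the median difference was 0.006 with the mimic and 0.25 with the inhibitor. The list as a whole thus did not rise in both groups. F3 lost its separation after centring on medians.

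SRF binds the CArG box, and the promoters of 4 genes that held one are shown, those of the 3 SRF targets above the controls and of Zfp36 below them. Promoter sequences from RefSeq (GRCm38.p6) were at hand for 240 of the 298 genes above the controls and 223 of the 284 below that passed the level filter, and the 250 bases before the first listed start were searched on both strands. A CArG box stood in 8 of the 240 (3.33%), in 1 of the 223 (0.448%) and in 1.17% of 9538 promoters of all genes that passed the filter. The 8 were Srf, Vcl, Fhl2, Dusp5, Fermt2, Lima1, Lurap1l and Tbc1d9, and the 1 was Zfp36. Lima1 lost its separation from the controls under all 3 rescalings, Tbc1d9 after centring on 75th percentiles, and Srf and Lurap1l after quantile normalization. The stretches below run from 250 bases to 1 base before the start, on the strand of the gene, with CArG boxes in capitals. They lie at chr17:46556163-46556412 (minus strand) for Srf, chr14:20929148-20929397 (plus) for Vcl, chr1:43196762-43197011 (minus) for Fhl2 and chr7:28379229-28379478 (minus) for Zfp36.
Srf: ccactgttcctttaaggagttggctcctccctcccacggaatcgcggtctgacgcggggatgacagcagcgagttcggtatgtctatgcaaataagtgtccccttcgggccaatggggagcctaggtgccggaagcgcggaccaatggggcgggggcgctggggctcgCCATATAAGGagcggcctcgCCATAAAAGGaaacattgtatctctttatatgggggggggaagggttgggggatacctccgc
Vcl: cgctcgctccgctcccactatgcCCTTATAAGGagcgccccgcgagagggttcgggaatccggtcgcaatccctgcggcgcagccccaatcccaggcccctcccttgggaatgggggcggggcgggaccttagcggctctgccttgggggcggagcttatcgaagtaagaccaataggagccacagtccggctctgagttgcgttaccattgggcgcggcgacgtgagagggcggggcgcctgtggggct
Fhl2: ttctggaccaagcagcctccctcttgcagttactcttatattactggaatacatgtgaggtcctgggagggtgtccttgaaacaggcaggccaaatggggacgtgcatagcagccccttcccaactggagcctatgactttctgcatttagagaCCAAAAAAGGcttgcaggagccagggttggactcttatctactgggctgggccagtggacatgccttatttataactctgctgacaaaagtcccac
Zfp36: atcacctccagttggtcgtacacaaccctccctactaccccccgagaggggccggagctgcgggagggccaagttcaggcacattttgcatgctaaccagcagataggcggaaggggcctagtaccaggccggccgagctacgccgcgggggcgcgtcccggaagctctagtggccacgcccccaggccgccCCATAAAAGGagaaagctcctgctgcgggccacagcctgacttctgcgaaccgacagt
Srf, whose product can bind such boxes, held 2 of them, 82 to 73 and 62 to 53 bases before its start. The box of Zfp36, a gene that lay below the controls, has the same letters as the second box of Srf, so a CArG box stood before genes of either direction. A match is a description of these letters only.

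The other motifs searched were AP-1 (TGANTCA), CRE (TGACGTCA), TEAD (GGAATG), E-box (CACGTG), forkhead (TGTTTAC), NF-Y (CCAAT, which a CArG box can contain), SMAD box (GTCTAGAC), BMP element (GGCGCC) and NBRE (AAAGGTCA). AP-1 stood in 7.08% of promoters of genes above, 6.73% below and 4.18% of all that passed. CRE stood in 3.33%, 2.69% and 2.75%, and TEAD in 12.1%, 12.1% and 10.6%. For E-box the shares were 10.8%, 6.28% and 8.47%, for forkhead 1.67%, 4.04% and 2.13%, and for NF-Y 35.0%, 43.9% and 36.3%. BMP elements stood in 19.6%, 10.3% and 16.8%, NBRE in 0.417%, 0.448% and 0.734%, and the SMAD box in 0 of 240, 1 of 223 and 0.178%.

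Among the genes below the controls, the probe set of the microRNA gene Mir145a (gene ID 387163) led by far. It read 5.07, 5.06 and 5.20 (log2) in the controls, 4.01, 4.17 and 4.03 with the mimic, and 4.10, 4.03 and 3.99 with the inhibitor. Its mean was 1.04 and 1.07 lower, close to equal in both groups. Zfp36, which encodes tristetraprolin, a protein that destabilises AU-rich messages, read 5.79, 5.91 and 6.03 in the controls, 5.40, 5.30 and 5.22 with the mimic and 5.33, 5.29 and 5.34 with the inhibitor. Bmf, a death-promoting member of the Bcl2 family, read 6.64, 6.66 and 6.55 in the controls, 6.14, 6.19 and 6.25 with the mimic, and 5.89, 6.13 and 5.97 with the inhibitor. In all 3 genes no treated array came within 0.25 of the control mean.

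The other leading genes below the controls were Eno2 (-0.41 with the mimic and -0.41 with the inhibitor), which encodes the gamma enolase, Ccng2 (-0.39 and -0.41), a cyclin linked to cell cycle exit, Hddc3 (-0.38 and -0.50), Fos (-0.37 and -0.43), Narf (-0.36 and -0.36), the secreted Wnt modulator gene Sfrp2 (-0.35 and -0.73), Eif3k (-0.34 and -0.36), a subunit of translation initiation factor 3, Ier2 (-0.45 and -0.33) and Gpx1 (-0.33 and -0.39), a glutathione peroxidase. Ccng2 read 6.78, 6.78 and 6.79 in the controls, 6.43, 6.55 and 6.19 with the mimic, and 6.46, 6.28 and 6.38 with the inhibitor. Fos, the partner of Jun in AP-1, read 4.33, 4.35 and 4.44 in the controls, 4.07, 3.92 and 4.02 with the mimic and 3.92, 3.98 and 3.91 with the inhibitor, which is close to the level filter.

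Genes linked to quiescence and growth arrest held 6 of 29 below the controls and 2 above, beside 2.33% and 1.65% of all genes. Below lay Ccng2, Bmf, Bcl2l11 (-0.20 and -0.34), which encodes the death factor Bim, Txnip (-0.30 and -0.22), the thioredoxin-binding protein, Pik3ip1 (-0.19 and -0.38), an inhibitor of phosphoinositide 3-kinase, and Cdkn2d (-0.12 and -0.17). Cdkn2d lost its separation after centring on 75th percentiles. Above lay Klf9 and Ypel5 (0.38 and 0.35). Of 24 mitosis genes, 5 lay below and 0 above, namely Kif20a (-0.51 and -0.13), Aurka (-0.48 and -0.06), Cdc20 (-0.43 and -0.15), Cenpa (-0.42 and -0.15) and Ccnb2 (-0.24 and -0.34). The median difference over the mitosis list was -0.41 with the mimic and -0.006 with the inhibitor, so the list as a whole did not fall in both groups. Kif20a and Aurka lost their separation from the controls after centring on medians, and Ccnb2 after quantile normalization.

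Of 19 ribosomal protein genes, Rps14, Rpl24, Rpl22 and Rpl28 lay below, by 0.05 to 0.11 with the mimic and 0.13 to 0.22 with the inhibitor, and none above. Over all 67 genes with an Rpl or Rps symbol, 5 lay below (7.46%), where 2.33% of all genes did. These probe sets may also read processed pseudogenes, and none of the 4 met the rule under all 3 rescalings. Of 37 respiratory chain genes, Cox4i1 (-0.21 and -0.26), Ndufs7, Atp5c1 and Ndufa4 lay below, and Ndufa9 (0.33 and 0.49) above. Of 20 sterol genes, Dhcr7 (-0.23 and -0.09) and Mvd (-0.21 and -0.09) lay below. The median difference over the sterol list was -0.32 with the mimic and 0.02 with the inhibitor, so the list as a whole did not go one way in both groups. Of 31 interferon-stimulated genes, those below were Irf1 (-0.24 and -0.12), Oasl2 (-0.08 and -0.18) and Parp14, which did not pass the level filter. Of the respiratory chain, sterol and interferon genes named here, Cox4i1 and Ndufa9 kept their separation under all 3 rescalings and the others lost it under at least 1.

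The remaining lists held few such genes, where 1.65% of all genes lay above the controls and 2.33% below. Cxcl12 (-0.25 and -0.26) lay below among 19 chemokine and inflammation genes, and Eno2 among 21 of glycolysis and hypoxia. Mfap4 (-0.18 and -0.32) did so among 34 collagen and other matrix genes. Prelp (-0.17 and -0.29) and Kera, which did not pass the level filter, did so among 13 small leucine-rich proteoglycans. Cebpb (0.39 and 0.43) and Cebpd (0.18 and 0.10) lay above among 20 fatty acid and adipocyte genes, Plk2 (0.24 and 0.47) among 19 p53 targets, Xbp1 (0.10 and 0.06) among 23 stress genes, and Asah1 and Idua (0.16 and 0.06) among 28 lysosomal genes. Of 27 Wnt pathway genes Ror1 (0.17 and 0.07) lay above and Sfrp2 below. No gene of the DNA replication list (32 on the array), the small RNA machinery (18) or the nuclear envelope (14) met the rule. As 3.98% of all genes met it, lists of these sizes can hold none, and nothing is read from their absence. The fibroblast marker Thy1 lay above the controls (0.38 and 0.16). Kera, Cebpd, Xbp1, Idua, Ror1 and Thy1 lost their separation under at least 1 rescaling.

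**Figure D3:**
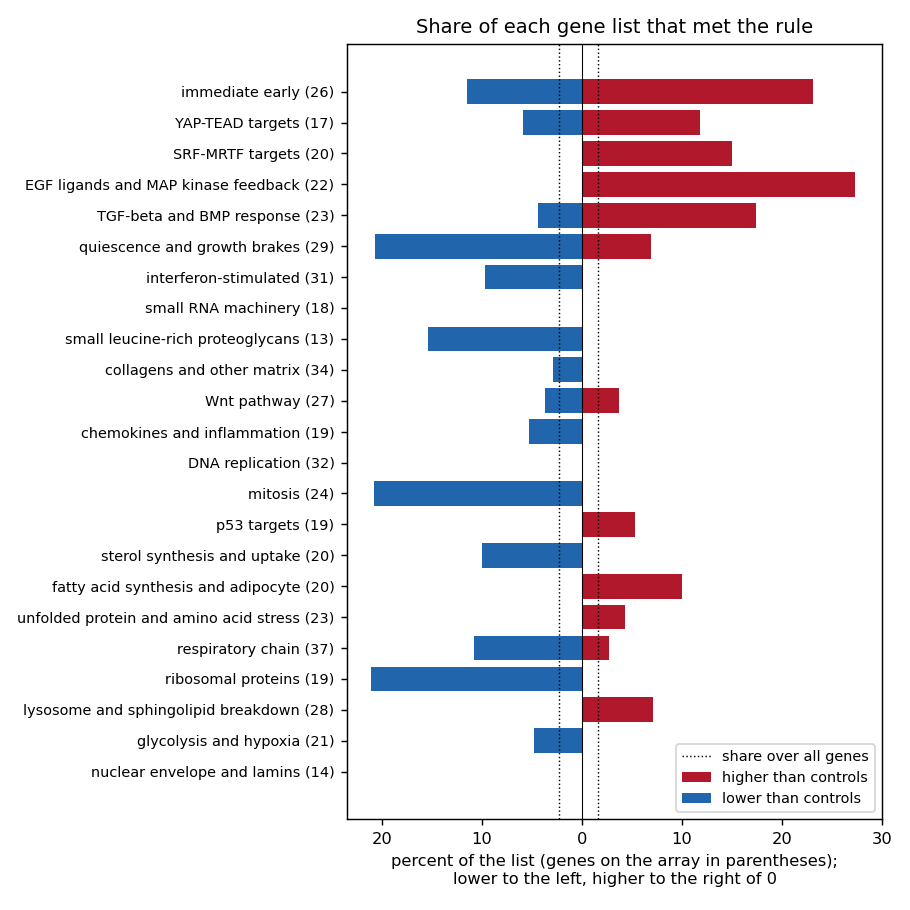
Share of each gene list, in percent of its genes on the array (number in parentheses), that lay above (right, red) or below (left, blue) the controls on all 6 mimic and inhibitor arrays; dotted lines mark the shares over all 19938 genes, 1.65% above and 2.33% below. EGF ligands and MAP kinase feedback genes reach 6 of 22 above, and quiescence genes 6 of 29 below.

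MicroRNA genes were among those lower in both groups. The array reads RNA from the locus of a microRNA, which includes its precursor, and does not measure the mature microRNA. Of 300 probe sets of microRNA genes, 12 lay below the controls and 2 above, where 2.33% and 1.65% of all genes did. Of the 14, 6 passed the level filter, namely Mir145a, Mir143, Mir125b-1, Mir7-1 and Mir694 below and Mir27a above. Mir143, the neighbour of Mir145a, read 4.69, 4.56 and 4.62 in the controls, 4.26, 4.28 and 4.21 with the mimic, and 4.27, 4.36 and 4.35 with the inhibitor. Mir27a read 5.06, 5.16 and 5.08 in the controls, 5.31, 5.43 and 5.46 with the mimic, and 5.70, 5.75 and 5.40 with the inhibitor. Its neighbours on the array, looked at after this, did not meet the rule, with differences of 0.09 and 0.32 for Mir23a and 0.19 and 0.14 for Mir24-2. Mir125b-1 (-0.11 and -0.12), Mir7-1 (-0.14 and -0.05) and Mir694 (-0.09 and -0.09) lay close to the controls and did not meet the rule under any of the 3 rescalings. Ppargc1b, the host gene of miR-378, was no member, with differences of 0.03 and 0.05.

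RefSeq sequences were matched for 10 of the 14 microRNA genes. The mature arms of 3 that passed the filter are shown 5′ to 3′ with the seed, bases 2 to 8, in capitals, to show which seeds these loci encode.
miR-27a-3p: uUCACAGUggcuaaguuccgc
miR-27a-5p: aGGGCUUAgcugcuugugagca
miR-125b-5p: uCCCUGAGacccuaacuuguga
miR-125b-1-3p: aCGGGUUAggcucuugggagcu
miR-7a-5p: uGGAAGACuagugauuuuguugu
miR-7a-1-3p: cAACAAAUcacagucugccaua
The 6 seeds differ from each other. miR-27a, at chr8:84208727-84208747 (3p arm, plus strand, GRCm38.p6), comes from the locus that lay above the controls, and the other 2 come from loci that lay below.

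**Figure D4:**
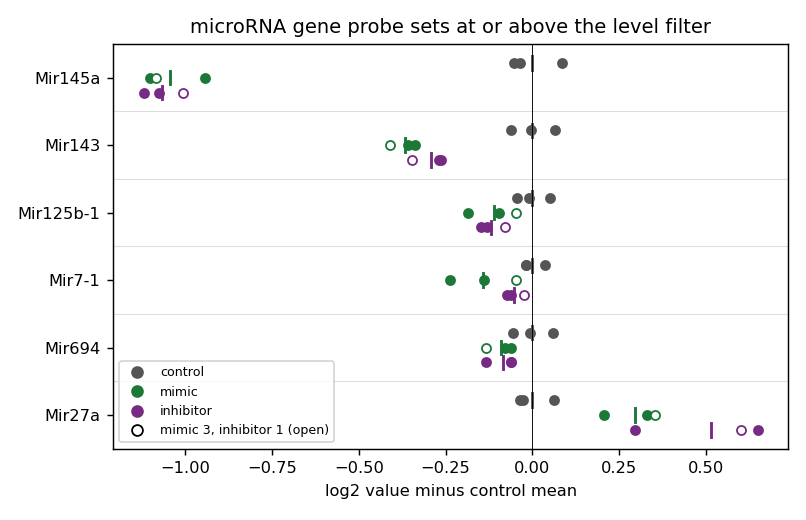
Log2 value minus the control mean on each array for the 6 microRNA gene probe sets that met the rule and passed the level filter; dots are arrays, short bars group means, and open dots mimic 3 and inhibitor 1. Mir145a lies near -1 in both groups, Mir143 at -0.37 and -0.29, and Mir27a is the only one above the controls.

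The rule fixes that a gene lies on the same side in both groups but not by how much in each, so mimic and inhibitor were compared directly with limma over all 11963 genes that passed the filter. Of the 298 genes above the controls, 71 differed between mimic and inhibitor (23.8%), and of the 284 below, 35 did (12.3%), while 26.8% of all genes tested did (limma, adjusted p under 0.05). The rule read the same 6 arrays and left out genes that went opposite ways, which bears on these shares, so nothing is read from their distance to the share over all genes. In 62 of the 71 the mimic value was lower, so the inhibitor lay farther from the controls, and in 9 it was higher. Of all genes tested, 19.9% were lower with the mimic than with the inhibitor and 6.91% higher. Of the 35 genes below the controls, 20 were lower with the mimic and 15 higher.

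The ligand gene Ereg differed most. It read 4.19, 4.22 and 4.25 in the controls, 4.60, 4.60 and 4.30 with the mimic, and 6.36, 5.97 and 6.11 with the inhibitor, so that mimic 3 barely left the controls. Mimic minus inhibitor was -1.64 (95% interval -1.87 to -1.42; limma, adjusted p = 1.41e-05). For Efnb2, which encodes the Eph receptor ligand ephrin-B2, it was -0.87 ± 0.05 (SE; limma, adjusted p = 1.41e-05). Klf4 and Hbegf differed by -0.75 and -0.73 (limma, adjusted p of 0.00027 and 0.000211). Smaller differences of this kind were those of Klf7 (-0.49), Klf9 (-0.45), Klf10 (-0.43), Smad7 (-0.34), Skil (-0.30), Ccn2 (-0.29), Thbs1 (-0.24) and Plk2 (-0.23), with limma's adjusted p between 0.000999 and 0.0413. When each array was omitted in turn, Thbs1 stayed past the threshold in 1 of 9 refits, Plk2 in 5 and Klf7 in 7 (limma, adjusted p of up to 0.195, 0.0919 and 0.0675 over all alternatives). Klf7 lost its call without inhibitor 1 or 3. Plk2 lost it without mimic 1 or 3 or inhibitor 1 or 3.

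The mimic lay farther above the controls in Slc25a11, the mitochondrial oxoglutarate carrier, Mob3a, the Notch target gene Hes1, Fhl2 and Thy1. Slc25a11 read 7.11, 7.04 and 7.06 in the controls, 7.73, 7.73 and 7.61 with the mimic, and 7.31, 7.32 and 7.25 with the inhibitor. Mimic minus inhibitor was 0.40 for this gene, 0.36 for Mob3a, 0.32 for Hes1, 0.27 for Fhl2 and 0.22 for Thy1 (limma, adjusted p of at most 0.0234). Thy1 stayed past the threshold in 6 of 9 such refits and lost it without mimic 3 and without inhibitor 2 or 3 (limma, adjusted p of up to 0.082). Hes1 and Thy1 lost their separation from the controls after quantile normalization, and Hes1 also after centring on 75th percentiles.

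Of the 24 mitosis genes, 23 were lower with the mimic than with the inhibitor (limma, adjusted p under 0.05), against 19.9% of all genes tested, and 4 of the 5 that lay below the controls were among them. Stmn1, a tubulin-binding protein, read 8.69, 8.75 and 8.74 in the controls, 8.17, 8.05 and 8.06 with the mimic, and 8.64, 8.52 and 8.55 with the inhibitor, a difference between mimic and inhibitor of -0.47 (limma, adjusted p = 0.000244). Pimreg (-0.43), the mitotic kinase gene Aurka (-0.42), D17H6S56E-5 (-0.41), Kif20a (-0.38), the anaphase activator gene Cdc20 (-0.29) and the centromeric histone gene Cenpa (-0.27) went the same way (limma, adjusted p of at most 0.00992). The calls of Cdc20 and Cenpa ended after quantile normalization, and that of Cenpa also after centring on 75th percentiles (limma, adjusted p of up to 0.108 and 0.2 over all alternatives). Stmn1 lost its separation from the controls after centring on medians. Lrrc17, a secreted leucine-rich repeat protein, was lowest with the inhibitor. It read 8.23, 8.12 and 8.12 in the controls, 7.93, 7.92 and 7.94 with the mimic, and 7.13, 7.18 and 7.05 with the inhibitor, and mimic minus inhibitor was 0.81 (95% interval 0.69 to 0.93; limma, adjusted p = 1.63e-05). The prokineticin receptor gene Prokr1 (0.59), Aplf (0.42), a DNA repair factor, and Sfrp2 (0.38) also stood lower with the inhibitor (limma, adjusted p of at most 0.00647).

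**Figure D5:**
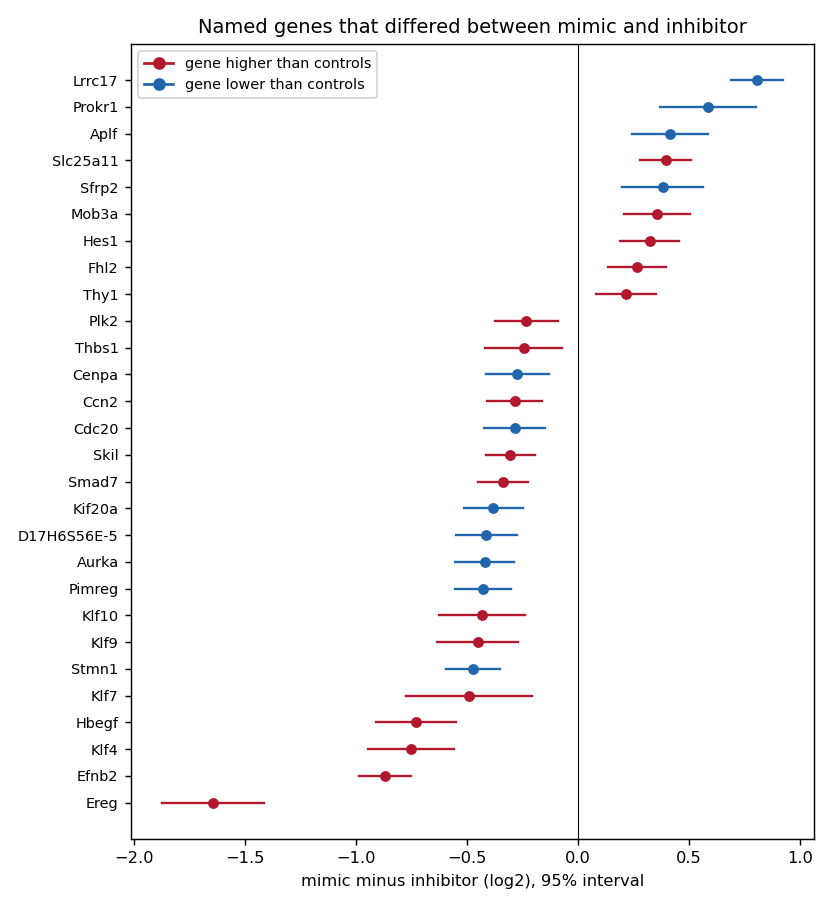
Mimic minus inhibitor (log2) with its 95% interval from limma for the 28 named genes past the threshold, with 3 arrays a group; red marks genes above and blue genes below the controls. Ereg lies farthest left at -1.64 and Lrrc17 farthest right at 0.81.

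The width of the interval shows how closely single genes were measured in both groups. The 95% interval of mimic minus inhibitor lay within 0.25 (log2) of 0 in 153 of the 298 genes above the controls (51.3%) and in 218 of the 284 below (76.8%), beside 45.6% of all genes tested. The rule favours genes with close values on these arrays, so the higher shares are in part set by it and are a description only. For Mir145a the difference was 0.02 with an interval of -0.11 to 0.16, and for Zfp36 it was -0.01 with an interval of -0.16 to 0.14. Mir145a lay close to the level filter in both groups, so nothing about equal effects is read from its interval. The tightest among the leading 40 genes of each direction were those of Dhrs3 (0.02, -0.11 to 0.15), a retinal reductase, and Ypel5 (0.03, -0.11 to 0.17) above the controls, and Sh3bgrl3 (-0.03, -0.13 to 0.07) and Cxcl12 (0.02, -0.09 to 0.12), the chemokine that binds CXCR4, below. For Nr4a1 the interval ran from -0.35 to 0.03, so that small and larger differences between the groups both lie inside it.

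The rule read 1 probe set per gene, and 37 of the 793 genes had others. Of their 58 other probe sets, 52 differed from the controls in the same direction, 9 met the rule on that side and 0 met it on the opposite side. Many of the 58 belonged to Rpl23a and other ribosomal protein genes, and some shared the same mean and difference. They are therefore not 58 separate readings. In the order of genes along the chromosomes, 34 pairs of neighbouring genes on the array both met the rule, and 22 of them on the same side, among them Mir143 and Mir145a, Plau and Vcl, and Ypel5 and Lbh. The rule took 3.98% of all genes, so some such pairs arise by placement alone. Their expected number was not worked out, so nothing is read from the 34 or the 22. Just inside the rule lay Wdr81, Gid4 and Grin2c above the controls, with pooled differences of 0.12, 0.21 and 0.05, and 1110032A03Rik, Mab21l1 and Prap1 below, with -0.19, -0.14 and -0.09. Just outside lay Kalrn (0.04), Irak1 (0.06) and Ipo4 (0.17), and B3glct (-0.03), Morn3 (-0.06) and Snora70 (-0.16).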

How the data were processed

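The values are log2 expression as deposited by the authors, for 28853 probe sets on 9 arrays with none missing. The submitters' processing notes list Partek 6.5 and RMA, a method that corrects background, quantile-normalizes probes and summarises them by median polish. No source used here gives the genome build. Precision is limited by the number of arrays. Genes were named from probe sets with 1 gene in the platform annotation (21789, against 1621 with several and 5443 unnamed), and each of 19938 genes was read from its probe set of highest mean. Their IDs matched RefSeq (GRCm38.p6) for 19856. The level filter was the 40th percentile of means, 3.86.

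Mimic and inhibitor were compared with limma 3.58.1 (R 4.3.3; lmFit, then eBayes, on all 9 arrays with a mean for each group), with Benjamini-Hochberg adjustment over 11963 genes and a threshold of 0.05. The rule did not use the difference between these groups, but it read the same arrays. On simulated data of 11963 genes it recovered 56.7%, 83.6% and 100% of genes changed by 0.3, 0.5 and 1, with 8 false among 168 calls. Named genes were the 12 leading on each side by the smaller of the 2 differences, 4 per direction with the largest difference between the groups each way, up to 4 per list, all microRNA genes, the closest to the rule's edge, the tightest intervals and Ppargc1b. Any other gene named was chosen after its values were seen. Members, lists and the rule were chosen with earlier results of these data known. Python 3.11.15 and matplotlib 3.10.9 drew the figures.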

Additional observations from a re-analysis of the deposited data

Results flagged for a closer look

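In 28 of the genes named above as lying on one side of the controls in both groups, the effects of mimic and inhibitor differed from each other in the direct comparison (limma, adjusted p of at most 0.0413). The cause of these differences was not tested. Mimic minus inhibitor (log2) was below 0 in 19 of them. Above the controls, and thus farther from them with the inhibitor, these were Ereg (-1.64), Efnb2 (-0.87), Klf4 (-0.75), Hbegf (-0.73), Klf7 (-0.49), Klf9 (-0.45), Klf10 (-0.43), Smad7 (-0.34), Skil (-0.30), Ccn2 (-0.29), Thbs1 (-0.24) and Plk2 (-0.23). Below the controls, and farther from them with the mimic, were Stmn1 (-0.47), Pimreg (-0.43), Aurka (-0.42), D17H6S56E-5 (-0.41), Kif20a (-0.38), Cdc20 (-0.29) and Cenpa (-0.27). In the other 9 the mimic value was higher, namely Thy1 (0.22), Fhl2 (0.27), Hes1 (0.32), Mob3a (0.36) and Slc25a11 (0.40) above the controls, and Sfrp2 (0.38), Aplf (0.42), Prokr1 (0.59) and Lrrc17 (0.81) below.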

How the results depend on the processing

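With single arrays left out the rule is easier to meet, and it took 367 to 875 genes above the controls and 538 to 1013 below. The highest counts came without mimic 3 (875) and without control 2 (1013), and without control 1 or 3 the counts below were 858 and 906. Without mimic 3 and inhibitor 1, chosen after seeing the data, they were 1085 and 906. Quantile normalization gave 494 above, median centring 282 below, and the level filter left 284 below. The 71 genes above the controls that differed between mimic and inhibitor came to 6 at 1.5-fold or more. The 35 below came to 58 after quantile normalization, 69 after centring on 75th percentiles, 23 in a fit of 6 arrays and 2 at 1.5-fold. The 218 intervals within 0.25 became 141 after centring on 75th percentiles and 401 with no level filter. Beyond what each setting removes or adds by construction, the cause was not tested. With the replicate number as a block, 65 and 32 genes differed. The labels do not say whether the numbers pair the arrays. Deviations of arrays with the same number correlated between -0.589 and 0.224, which with 3 arrays a group cannot settle it. No pooled difference of a named gene that met the rule changed sign under any alternative run. Named genes outside the rule were not checked for this. Of the comparisons of single named genes, 33 lost and 33 gained a call, and 8 pooled differences moved by more than the spread between arrays.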

Other observations

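Sets of related genes picked after their values were seen, and so without a test, held further genes on one side, where 1.65% of all genes lay above the controls and 2.33% below. Of 33 glutathione peroxidases, transferases and related enzymes, 5 lay below the controls in both groups and 0 above. Gsta4 differed by -0.32 with the mimic and -0.33 with the inhibitor, Gstm1 by -0.20 and -0.55, and Gstm3 by -0.14 and -0.34, besides Gpx1 and the weakly detected Gsta3 (-0.03 and -0.09). The median over the 24 that passed the level filter was -0.10. Of 347 genes with a Zfp symbol, which encode zinc finger proteins, 15 lay below and Zfp36l2 alone above, so that 4.32% lay below. Among the 15, Zfp324, Zfp354a, Zfp39, Zfp467, Zfp536, Zfp799, Zfp846 and Zfp873 lost their separation under at least 1 rescaling.

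Of 19 genes of the circadian clock and its output, Cry1 (0.41 and 0.29), the repressor gene Nfil3 (0.42 and 0.59), Noct (0.26 and 0.25), Arntl (0.26 and 0.10) and Rora (0.11 and 0.21) lay above the controls, and Tef (-0.22 and -0.16), whose product binds similar sites to that of Nfil3, lay below. Arntl and Rora lost their separation under at least 1 rescaling. Of the 4 urokinase system genes on the array, Plau (0.38 and 0.57), the urokinase gene, and Plaur (0.33 and 0.82), its receptor gene, lay above. Of 21 Eph receptor and ephrin genes, Epha2 (0.28 and 0.82), Epha4 (0.23 and 0.35), Efnb1 (0.22 and 0.14) and Efnb2 lay above and Efna1 (-0.24 and -0.22) below. Gstm3, Gsta3 and Efnb1 also lost their separation under at least 1 rescaling.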
